A study of Mus musculus with 6 samples.

Results

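Per2, Bhlhe41 and Timeless are 3 of the 265 gene symbols measured by the larger of the primer sets used on sorted cells of mouse hypothalamus. They were taken as the genes of the circadian clock in that set, 1 amplicon each, designed on transcripts NM_011066.3, NM_024469.2 and NM_001164081.1. UMIs, the tags that count single molecules, were measured in C57/Bl6 mice of the genotype KLB-CRE; Ai14, whose Cre switches on tdTomato for good in any cell whose lineage has expressed Klb, the co-receptor of the hormone FGF21. Each of 3 captures pooled 3 hypothalami, and the pronase-digested cells were sorted for tdTomato fluorescence and for viability with Hoechst dye. All libraries share strain, genotype, tissue and sort, so there is no untreated or Cre-negative group, and no age or time of day is given in the sources used here.

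Of 6 libraries, 4 hold the larger set. They are replicate 1 of panel 1, called the panel 1 library here, and replicates 1, 2 and 3 of panel 2, where a replicate is a capture. The panel 1 library holds the same 290 amplicons as panel 2, so whether its panel label describes its primers is in doubt. After a minimum of 20 UMIs and 5 genes per barcode they gave 1124 cells of 1729 barcodes, namely 950, 44, 43 and 87. The median depth was 51 UMIs per cell in the panel 1 library, then 115.5, 1352 and 1068 in panel 2, and the 4 libraries shared 0 cell indices. Panel 2 of replicate 1 stands apart, with 11423 UMIs in all and 50 genes detected against 157, 93 and 120 in the others. The cells are labelled as expressing Klb, yet Klb had 0 UMIs in each of the 4 libraries, and tdTomato had 0 in panel 2 of replicate 1. Means over panel 2 have n = 3, and the panel 1 library is given apart. No test was made between the panels, since the larger set has 1 library of panel 1, and a library is 1 sample however many cells it holds. Intervals are exact 95% intervals, Clopper-Pearson for shares of cells and Poisson for UMIs per 1000, and cover counting error only. A count of 0 is given with a limit of 3 counts, which is tighter than the exact upper bound.

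The mammalian clock is a loop in which CLOCK and BMAL1 bind E-box letters in promoters and drive genes whose products then shut them off. PER2 is one of these repressors, carried into the nucleus with the cryptochromes. BHLHE41, also called DEC2, is a helix-loop-helix repressor that competes for the same E-boxes. TIMELESS is best known in mammals for its role at the replication fork and in the checkpoint with TIPIN, and its part in the mammalian clock is less settled than that of its fly namesake. In the hypothalamus the master clock sits in the suprachiasmatic nucleus, but clock genes cycle in glia and vessels as well.

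The E-box is shown for Bhlhe41 because it is the letter motif through which the loop is closed. RefSeq promoter windows of 300 bases, 250 before and 50 after the start, were given for Bhlhe41 and Timeless on build GRCm38.p6. The window of Bhlhe41, on the minus strand of chromosome 6, holds CACGTG 1 time, 147 bases before the start. The 60 bases around it, chr6:145865541-145865600, are printed with the E-box in capitals.
Bhlhe41 promoter: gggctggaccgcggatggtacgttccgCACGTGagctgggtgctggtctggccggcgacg
CACGTG, which reads the same on both strands, is in 7.15% of the 32851 windows of this length, and CACGTT on either strand is in 4.68%. The window of Timeless holds neither, and that of Bhlhe41 holds no CACGTT. These matches describe letters and say nothing of binding in these cells.

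Bhlhe41 was the clock gene found in every library and in every cell of panel 2. It had a UMI in 450 of 950 cells of the panel 1 library, or 47.4% (interval 44.2 to 50.6). In panel 2 it had one in all 44, all 43 and all 87 cells, with lower bounds of 92.0%, 91.8% and 95.8%. Its level was 10.0 UMIs per 1000 UMIs of the library (9.42 to 10.6) in the panel 1 library. In panel 2 of replicates 1, 2 and 3 it was 19.0 (16.6 to 21.7), 27.2 (26.1 to 28.4) and 23.1 (22.2 to 24.1), a mean of 23.1 ± 4.12 (SD, n = 3). The 3 libraries of panel 2 all lay above the library of panel 1, by 1.90-fold (1.63 to 2.20), 2.72-fold (2.53 to 2.93) and 2.31-fold (2.15 to 2.48). Within panel 2, the level in replicate 2 was 1.43-fold that in replicate 1 (1.25 to 1.66). Taken as the mean over cells of each cell's own level, these 2 libraries were at 27.1 and 26.8 per 1000, so the size of this gap depends on the scaling.

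**Figure D1:**
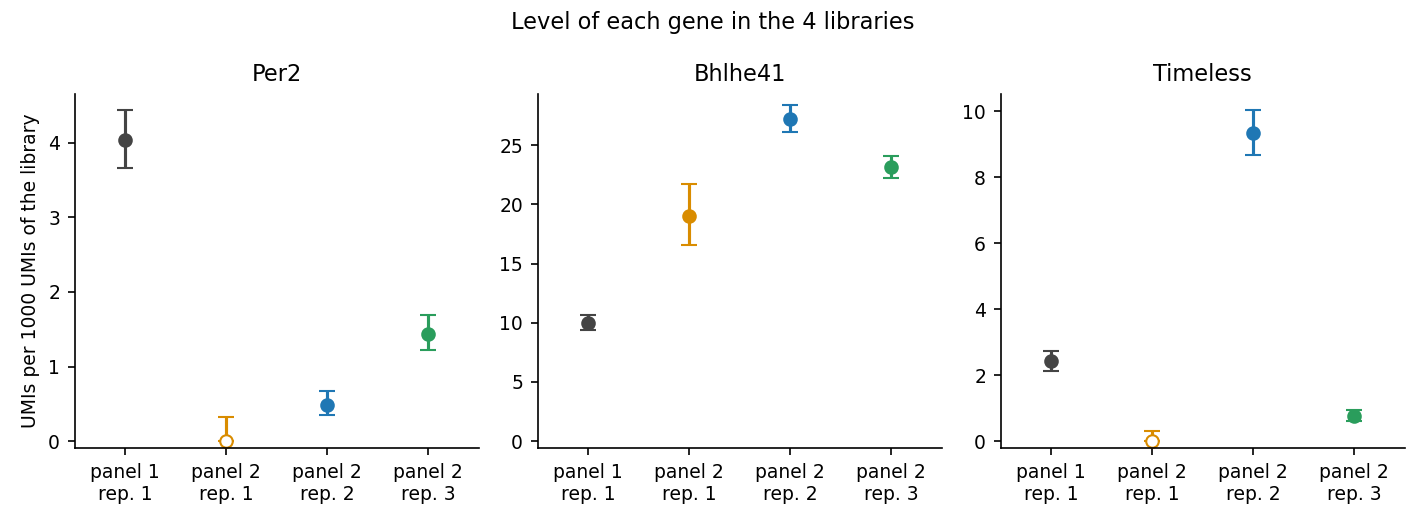
UMIs per 1000 UMIs of the library for each gene (vertical axes, each on its own scale from 0) in the 4 libraries, with exact Poisson 95% intervals. Open circles mark 0 UMIs. Bhlhe41 lies between 10.0 and 27.2 in all 4 libraries, while Per2 and Timeless are at 0 in panel 2 of replicate 1.

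Evenness over panel 2 set Bhlhe41 apart from the other clock genes by position, not by a test. Its coefficient of variation over the 3 libraries was 17.8%, the 5th smallest of 126 genes with at least 10 UMIs in panel 2, whose median was 133%. Per2, at 114%, and Timeless, at 154%, lay on either side of that median. Of the 126 genes, 92 (73.0%) were at 0 in 1 or 2 of the 3 libraries, Per2 and Timeless among them. A 0 in a library raises this coefficient, so the median and the contrast with these 2 genes rest in part on such zeros. The order between the panels was the same at equal depth: with every cell thinned to 35 UMIs, the expected share of cells with Bhlhe41 was 30.0% in the panel 1 library and 65.9%, 54.7% and 52.6% in panel 2. Thinning left out 306 cells of the panel 1 library and 1 cell of panel 2 of replicate 1.

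Per2 went the other way, being highest in panel 1. The repressor had a UMI in 259 of 950 cells of the panel 1 library, or 27.3% (24.5 to 30.2). It had none in the 44 cells of panel 2 of replicate 1, which allows a share of up to 6.82% by the limit of 3 counts and of 8.04% by the exact bound. In replicates 2 and 3 it was found in 46.5% (31.2 to 62.3) and 72.4% (61.8 to 81.5) of the cells. Over panel 2 the share was 39.6% ± 36.7 (SD, n = 3), a spread almost as wide as the mean. Per UMI the panel 1 library came first, with 4.04 per 1000 (3.66 to 4.44) against under 0.263 in panel 2 of replicate 1, then 0.490 (0.349 to 0.670) and 1.44 (1.23 to 1.69). The mean over panel 2 was 0.645 ± 0.734 per 1000 (SD, n = 3), with the panel 1 library above each of its libraries. At 35 UMIs per cell the shares were 13.1%, 0%, 1.96% and 4.74%, in the order of the levels. The higher shares at full depth in replicates 2 and 3 stand beside deeper cells, not higher levels. Cells with a Per2 UMI in the panel 1 library had a median of 127 UMIs against 41 in those without.

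**Figure D2:**
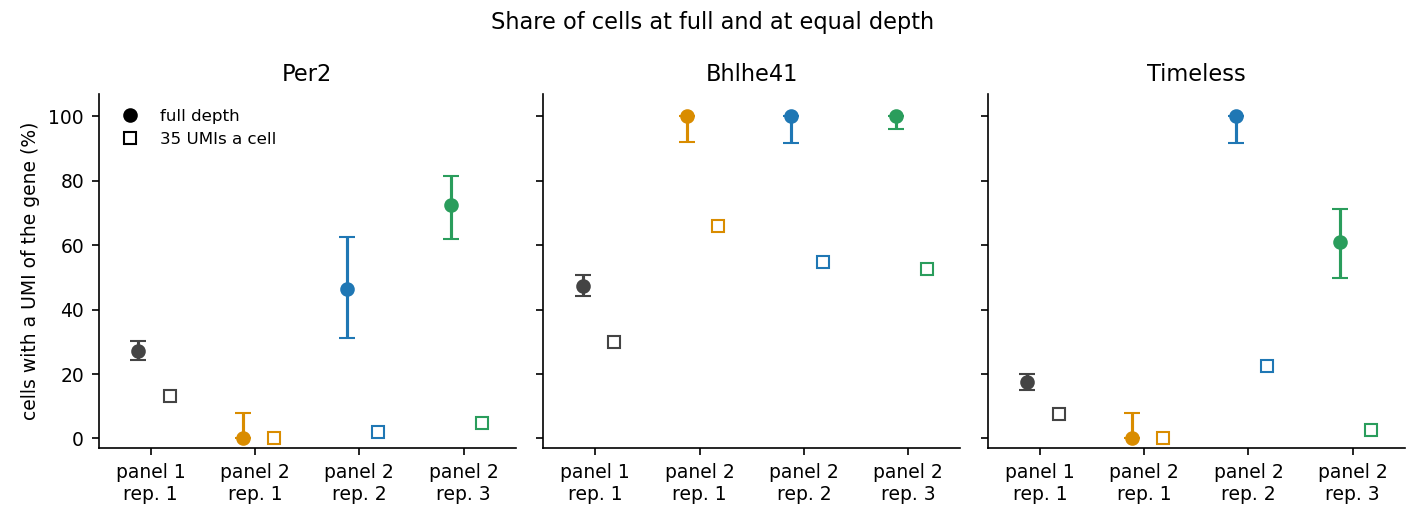
Share of cells with at least 1 UMI of each gene (percent) in the 4 libraries, at full depth with exact Clopper-Pearson 95% intervals (circles) and as computed for 35 UMIs a cell (squares). Per2 falls from 72.4% to 4.74% in panel 2 of replicate 3, and the highest Per2 square is then that of the panel 1 library.

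For Per2 the widest gap lay between the 2 libraries of capture 1. Panel 1 of that capture exceeded panel 2 by at least 15.4-fold, computed against a floor of 3 UMIs in the library. At the rate of panel 1, panel 2 would have held 46.1 Per2 UMIs, and it held 0. These libraries differ in panel label, pipeline release and cells, which cannot be told apart. Such zeros were common there: of 126 genes with at least 10 UMIs over panel 2, 79 were at 0 in its replicate 1, or 62.7%, and 92 were at 0 in at least 1 of its libraries, or 73.0%. The level in the panel 1 library was also 8.24-fold that in panel 2 of replicate 2 (5.93 to 11.7) and 2.80-fold that in replicate 3 (2.32 to 3.38). Replicate 3 in turn exceeded replicate 2 by 2.94-fold (2.06 to 4.30).

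Timeless had the widest range of the clock genes. It was found in 165 of 950 cells of the panel 1 library, or 17.4% (15.0 to 19.9). In panel 2 it was found in 0 of 44 cells, all 43 cells (lower bound 91.8%) and 60.9% of 87 cells (49.9 to 71.2). Replicate 2 thus held it everywhere and replicate 1 nowhere. The levels were 2.43 UMIs per 1000 (2.14 to 2.75) in the panel 1 library, under 0.263 in panel 2 of replicate 1, 9.34 (8.68 to 10.0) in replicate 2 and 0.767 (0.612 to 0.950) in replicate 3. Replicate 2 exceeded replicate 3 by 12.2-fold (9.70 to 15.4), the panel 1 library by 3.84-fold (3.33 to 4.45) and panel 2 of replicate 1 by at least 35.6-fold. The mean over panel 2, 3.37 ± 5.18 per 1000 (SD, n = 3), was smaller than its SD and fell to 0.384 without replicate 2. At 35 UMIs per cell the shares were 7.57%, 0%, 22.6% and 2.78%, again with panel 2 of replicate 2 on top.

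A single cell carried much of the Timeless signal of panel 2 of replicate 2. It held 241 of the 743 Timeless UMIs, or 32.4%, among 2041 UMIs of all genes, which is 118 per 1000 in that cell against a median of 6.30. The next highest cells had 84 UMIs and, per UMI, 11.4 per 1000. That cell had 34 Bhlhe41 UMIs, where the median cell had 32, and 1 Per2 UMI. It had 9 UMIs of Ermn, equal to the median cell, and 20 of Ugt8a, where the median cell had 10. Without it the level of the library was 6.48 per 1000, still the highest of the 4. The spread of Timeless over cells, as chi-square per degree of freedom around a fixed fraction of each cell, was 64.5 with that cell and 1.10 over the other 42. A value of 1 is what sampling alone gives, so apart from 1 cell Timeless was spread over the library much as a constant share of each cell's UMIs. In panel 2 of replicate 3 the value was 0.993, with 0 to 4 UMIs per cell. In the panel 1 library it was 1.66, and 1 cell held 37 of the 257 Timeless UMIs, or 14.4%.

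**Figure D3:**
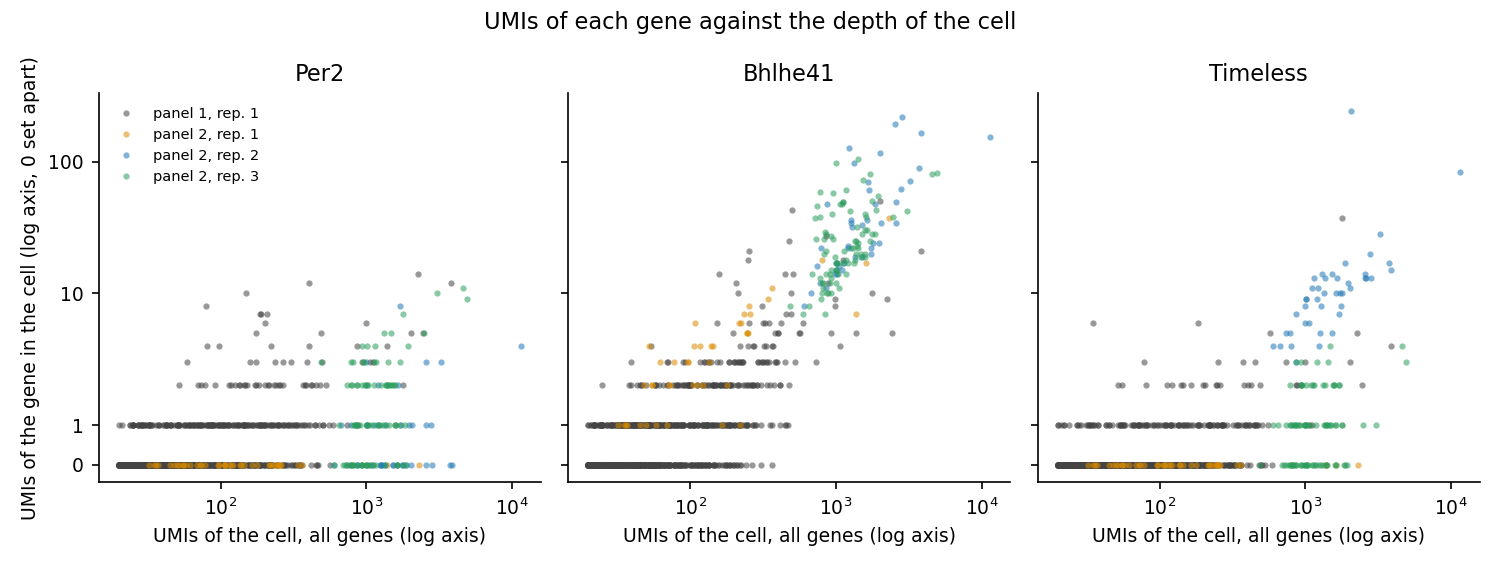
UMIs of each gene in a cell against all UMIs of that cell, both on log axes with 0 set apart at the bottom, for the 1124 cells coloured by library. Bhlhe41 rises with depth in all libraries, Per2 stays at or below 14 UMIs, and the cell with 241 Timeless UMIs stands alone at the top of the Timeless plot.

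The cells varied more in Bhlhe41 than sampling gives. Its UMIs ran from 1 to 37 per cell in panel 2 of replicate 1 (median 3), from 8 to 217 in replicate 2 (median 32) and from 7 to 104 in replicate 3 (median 22). Chi-square per degree of freedom was 1.60, 30.8 and 13.3 in these libraries and 1.79 in the panel 1 library. All genes with at least 10 UMIs had medians of 2.51, 12.9 and 3.92 in panel 2 and 1.87 in the panel 1 library. In replicates 2 and 3 of panel 2, 13 of 85 and 11 of 110 genes varied more than Bhlhe41. Cells with at least 50 Bhlhe41 UMIs per 1000, a limit chosen after the values were seen, numbered 2 of 44, 6 of 43 and 7 of 87. In replicate 2 they held 36.9% of all Bhlhe41 UMIs, and in replicate 3 they held 18.2%. Without them the values fell to 1.29, 7.31 and 6.15, so the spread was not confined to those cells in replicates 2 and 3.

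Per2 and Timeless both had fewer UMIs in the Bhlhe41-rich cells than the rate of the other cells would give. The 6 of replicate 2 held 0 Per2 UMIs among 10836, where that rate would give 6.15, and the 7 of replicate 3 held 5, where it would give 10.1. Of Timeless they held 54 in replicate 2, where the rate without the cell rich in Timeless would give 72.8, and in replicate 3 they held 3, where the rate of its other cells would give 5.34. Fcer1g also fell short there, by a smaller part than Per2 or Timeless, with 790 and 628 UMIs where its rates would give 923 and 672. In replicate 1 the 2 cells held 5 Fcer1g UMIs, where its rate would give 19.5. All these cells were picked by a high Bhlhe41 fraction of their UMIs, which leaves a smaller fraction for other genes. Bhlhe41 was at 73.8 per 1000 in these cells against 19.9 in the others in replicate 2, and at 68.2 against 20.2 in replicate 3. Some shortfall is thus built in, but how much of each was not tested, and the values are a description. The Per2 rate of replicate 2 also includes the cell with 8 of its 39 UMIs. The spread of Per2 over cells was 1.55 in chi-square per degree of freedom in the panel 1 library and 2.66 and 1.27 in panel 2 of replicates 2 and 3. In replicate 2, 1 cell held 8 of its 39 UMIs, or 20.5%.

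Within the panel 1 library the shares moved with depth far more than the levels did. From the 25% of its cells with the fewest UMIs (20 to 30) to the 25% with the most (119 to 3838), the share with Per2 went from 8.30% to 56.3%. Over the same range the share with Bhlhe41 went from 17.0% to 83.6%, and that with Timeless from 4.15% to 39.9%. In 4 such steps from shallow to deep, the Per2 level was 3.40, 3.15, 5.54 and 3.84 per 1000. For Bhlhe41 it was 7.13, 10.6, 9.08 and 10.4, and for Timeless 1.70, 2.31, 2.80 and 2.42. All 3 genes were lower in the shallowest cells than in the deepest, but no intervals were computed for these levels. Per2 was lowest not in the shallowest step but in the next, at 3.15. No cell type was named here, so no type that should lack these genes could serve as a background for the shares.

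Cells with and without the reporter differed in depth. The intervals of their clock gene levels overlapped, which does not show that the levels were equal. In the panel 1 library 281 cells with a tdTomato UMI had a median of 131 UMIs, and the 669 without had 41. Per2 was at 3.85 per 1000 (3.38 to 4.37) with tdTomato and 4.31 (3.71 to 4.97) without. Bhlhe41 was at 10.4 (9.65 to 11.3) and 9.41 (8.51 to 10.4), and Timeless at 2.70 (2.31 to 3.14) and 2.04 (1.63 to 2.51). Co-detection moved with depth as well. Per2 and Bhlhe41 were found together in 171 cells where independent detection would give 123, and those cells had a median of 180 UMIs against 32 in the cells with neither gene. All 3 genes were found in 62 cells, of median depth 279.5, and none in 375, of median depth 32.

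At equal depth the 3 clock genes showed no common order of cells. Cells were thinned to the lower quartile of depth of their library, and Spearman's rho was taken over the cells that reached it, as a description without a p. In the panel 1 library (725 cells at 30 UMIs) rho was 0.032 for Per2 and Bhlhe41, -0.042 for Per2 and Timeless and 0.015 for Bhlhe41 and Timeless. Timeless was in 6.69% of these thinned cells, under the 10% asked of the other genes. In panel 2 of replicate 2 (32 cells at 1032 UMIs) the same pairs gave -0.14, 0.15 and -0.28. In replicate 3 (65 cells at 863 UMIs) they gave -0.038, 0.090 and -0.060. The cells of a library share their capture and sequencing, and in counts this sparse a weak rho is no finding. Repeated thinning of the same cells moved the 3 values of replicate 2 by an SD of 0.11 to 0.12.

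**Figure D4:**
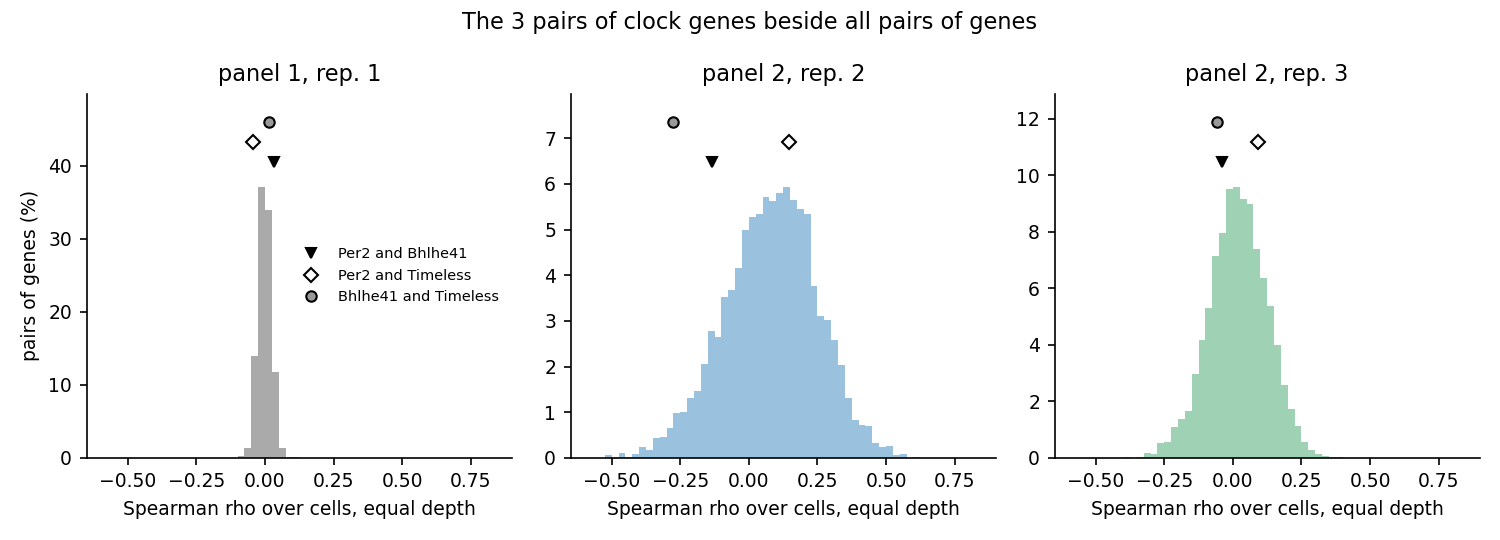
Percent of all pairs of genes at each Spearman rho over cells of equal depth (bars) in 3 libraries, with the 3 pairs of clock genes marked above. Bhlhe41 with Timeless in panel 2 of replicate 2, at -0.28, is the only marked pair past 0.2 in size.

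Only Bhlhe41 and Timeless in panel 2 of replicate 2 passed 0.2 in size, in the negative direction. The approximate 95% interval of that rho, by Fisher's transform over 32 cells, ran from -0.57 to 0.081 and so held 0. All values of rho named for that library rest on the same 32 cells. In that library 5.57% of all pairs of genes were at -0.2 or below and 24.4% at 0.2 or above, and the central 95% of pairs ran from -0.26 to 0.39. In the panel 1 library 0.0% of pairs passed either limit. In replicate 3, 3.94% were at 0.2 or above and 2.5% at -0.2 or below. Replicate 1 of panel 2, which holds Bhlhe41 alone, had 8.91% and 2.02%.

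Of the clock genes, Timeless passed 0.2 with the most genes, in panel 2 of replicate 2. There it passed 0.2 with 38 of 83 genes, or 45.8% against the 24.4% of all pairs. It was at -0.2 or below with 3, or 3.61% against 5.57%. Its highest were Nme5 at 0.49, Nr4a1, an early response receptor gene, at 0.48 and Nes, the intermediate filament nestin of tanycytes and progenitors, at 0.46. Its 3 lowest included Cables1 at -0.39 and Bhlhe41 at -0.28. Without the cell rich in Timeless the counts were 35 and 2, so they did not rest on it. Over the other 42 cells, however, the spread of Timeless was 1.10 in chi-square per degree of freedom, near sampling alone. Much of its order of cells may then be counting noise, which all 83 values share, so the counts do not show true partners. In replicate 3, however, Timeless passed 0.2 with 2 of 105 genes, or 1.90% against 3.94% of all pairs. Cables1 had its highest value there, 0.25, followed by Tmem18 at 0.21 and Arc at 0.16. The sign with Cables1 thus differed between these captures. Thrb, at -0.17, was the lowest partner in replicate 3.

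Bhlhe41 passed 0.2 in at least 2 libraries with 2 of 84 genes. Among them was the sorting nexin gene Snx32, in replicate 2 (0.22) and in replicate 3 (0.21). Of all pairs, 24.4% and 3.94% passed 0.2 in these libraries. The share of pairs that passed in both was not computed, so this repeat is not shown to exceed the background. For each of the other clock genes, 0 of 80 genes passed the limit the same way in 2 libraries. In replicate 2 the 3 lowest partners of Bhlhe41 included the early response gene Btg2, at -0.38, and the ciliary neurotrophic factor gene Cntf, at -0.34, and the highest was Gm13498, at 0.42. Counts there were 8 of 83 up, or 9.64% against 24.4% of all pairs, and 15 down, or 18.1% against 5.57%. In replicate 3 they were 2 up and 1 down of 105, with the GABA transporter gene Slc6a13 lowest at -0.22. These are 1.90% and 0.952%, against 3.94% and 2.5% of all pairs. In replicate 1 of panel 2, Bhlhe41 passed 0.2 with 6 of 34 genes, or 17.6% against 8.91% of all pairs. They were led by Camk2n1 at 0.27, Tmem237 at 0.23 and the gap junction gene Gja1 at 0.21.

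The partners of Per2 were no more frequent than the background. In panel 2 of replicate 2 it passed 0.2 with 8 of 83 genes, or 9.64% against the 24.4% of all pairs. It was at -0.2 or below with 2, or 2.41% against 5.57%. Highest were the oestrogen receptor gene Esr1 at 0.33, Slf2 at 0.29 and Rfx5 at 0.27, and lowest Mgat4b at -0.23 and Gm13498 at -0.22. In replicate 3 it passed with 4 of 105, or 3.81% against 3.94%, led by the collagen gene Col3a1 at 0.28, the growth cone gene Gap43 at 0.24 and the reporter tdTomato at 0.22. The receptor gene Adrb1, at -0.24, and the corepressor gene Trim28, at -0.22, were lowest. In the panel 1 library the whole range of Per2 was -0.056 with the glucose transporter gene Slc2a1 to 0.057 with Gucy1a3. Over its 56 genes Bhlhe41 ran there from -0.075 with Cspg4 to 0.067 with Fcer1g, and over 57 Timeless ran from -0.049 with Nr4a1 to 0.033 with Gfra2.

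Across libraries each clock gene had different nearest genes. Likeness was the root mean square difference between centred log2(UMIs per 1000 + 0.1) profiles over the 4 libraries, among 160 genes. Nearest to Per2 were Cirbp, a cold-inducible RNA-binding protein gene, at 0.41, then Bhlhe40 at 0.46, the cystine transporter gene Slc7a11 at 0.47, Nes at 0.47 and Gfap at 0.58, where the median gene was at 1.88. Nearest to Bhlhe41 were Tmem18 at 0.18, Grina at 0.25, the mitochondrial carrier gene Ucp2 at 0.25, Snx30 at 0.27 and Trim28 at 0.27, with a median of 2.05. Among the 5 nearest to Timeless were Ermn, a myelin sheath gene, at 0.04 and Ugt8a, an enzyme gene of myelin lipid synthesis, at 0.53, then Snx12 at 0.83 and Cox6a2 at 0.89, with a median of 2.49.

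**Figure D5:**
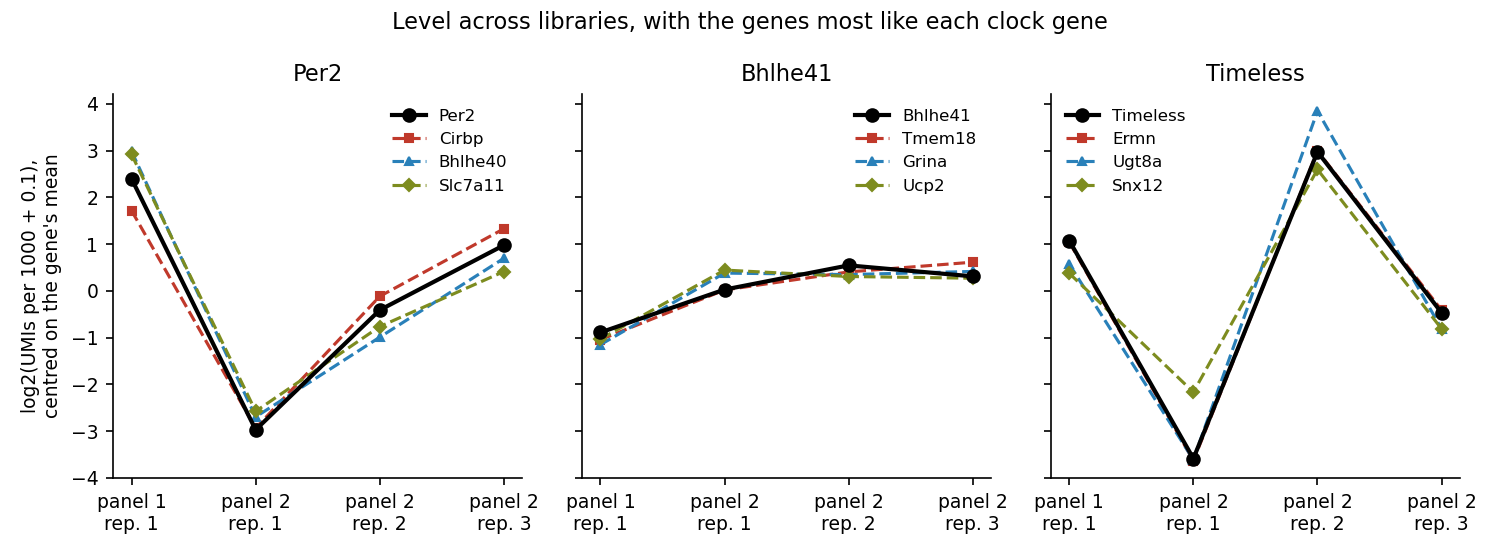
Centred log2(UMIs per 1000 + 0.1) of each clock gene (black) and of 3 of the genes nearest to it (dashed) in the 4 libraries. Per2 and its neighbours are highest in the panel 1 library, Bhlhe41 and its neighbours lowest there, and Timeless and its neighbours highest in panel 2 of replicate 2.

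The likeness of Ermn to Timeless was closest with all cells counted. Without the cell rich in Timeless, Ermn was still the nearest of 160 genes, at 0.25, and Ugt8a was at 0.76. Ermn and Ugt8a are 2 of the 4 oligodendrocyte lineage markers found of a list of 9, and the other 2 ran differently from Timeless. Bcas1 was at 60.5, 95.8, 23.1 and 15.5 UMIs per 1000, from the panel 1 library through replicates 1 to 3 of panel 2. In the same order Cspg4 was at 40.4, 42.5, 5.64 and 8.80. Both were highest in panel 2 of replicate 1, where Timeless was at 0, and the 4 summed to 105, 138, 56.0 and 25.7. Over cells the likeness was weak: rho of Timeless with Ermn was 0.16 in panel 2 of replicate 2 (0.25 without the cell rich in Timeless) and 0.024 in replicate 3. With Ugt8a it was 0.43 and -0.047.

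Bhlhe40, the sister repressor also called DEC1, was the only other analysed gene of a list of 26 clock genes, of which 4 were found in the set. The genes of CLOCK, BMAL1, the cryptochromes and the other PER proteins were not analysed here. In its levels across libraries Bhlhe40 followed Per2, not Bhlhe41. It was at 5.03 UMIs per 1000 in the panel 1 library (4.61 to 5.48), 0 in panel 2 of replicate 1, and 0.226 (0.134 to 0.358) and 0.950 (0.776 to 1.15) in replicates 2 and 3. Its shares of cells were 30.3%, 0%, 32.6% and 64.4%. Over cells at equal depth, rho of Bhlhe40 with Per2 was 0.018 in the panel 1 library, and 0.085 and 0.071 in replicates 2 and 3 of panel 2. The likeness is thus one of library levels.

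The markers of cells that could carry these genes varied between libraries too. Of 10 suprachiasmatic markers 2 were found in the set: Nms had 0 UMIs in all 4 libraries and Rgs16 was in 6.74%, 0%, 58.1% and 0% of the cells. The pars tuberalis, next to the hypothalamus, has a strong daily rhythm. Of 6 markers of it, Timeless itself among them, Cyp2f2 was at 0 throughout and Tshb was in 12.1%, 0%, 95.3% and 0%. Fcer1g, the one found of 8 markers of microglia and macrophages, was at 26.9, 121, 83.5 and 98.8 UMIs per 1000, lowest where Bhlhe41 was lowest. Within panel 2 the order was reversed, with Bhlhe41 at 19.0, 27.2 and 23.1. Over the cells of panel 2, rho of Fcer1g with Bhlhe41 was -0.074 in replicate 1, the lowest of 34 genes. It was -0.095 in replicate 2 and 0.016 in replicate 3. The 5 found of 6 vessel markers summed to 97.8, 51.4, 13.4 and 11.0 per 1000 and the 5 of 8 astrocyte and tanycyte markers to 44.4, 22.8, 0.930 and 5.77, both highest where Per2 was highest. Slco1c1 was at 0 in all of panel 2, and Vim was at 0 in its replicates 1 and 2. Other members of these lists went the other way: Acta2, at 9.33, 49.8, 3.58 and 3.95, and Gja1, at 16.2, 22.8, 0 and 0.192, were highest in panel 2 of replicate 1, where Per2 was at 0. The 6 of 9 neuronal markers summed to 4.06, 15.6, 0 and 1.38. The part of these cells in the levels of the clock genes was not tested. Timeless could not be set beside cycling, since none of 8 replication markers was analysed here. Early response genes, which dissociation can raise, were found as 5 of 11 and summed to 68.2, 66.4, 61.4 and 56.4 per 1000. In panel 2 of replicate 1 the whole sum was Btg2, since the other 4 were at 0. Fos, at 15.9, 0, 7.57 and 2.96, and Nr4a1, at 23.0, 0, 14.4 and 1.45, were at 0 in the same library as Per2 and Timeless.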

How the data were processed

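Deposited tables hold UMI counts per barcode and amplicon. Per the file headers, the authors ran BD's targeted Rhapsody pipeline, release 1.3 for replicate 1 of panel 1 and release 1.5 for the rest. Table names point to recursive substitution error correction of the UMIs, and mm9 is the build in the submitters' processing notes. For the aligner and cell calling, "not given in the sources used here" applies.

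Amplicons were summed by symbol, and barcodes with at least 20 UMIs and 5 genes were kept, which left out 605 of 1555 in the panel 1 library. From panel 2 of replicate 2, 21 barcodes that also stand in a table of replicate 3 were left out. Library depth was 105772 UMIs in panel 1 and 11423, 79560 and 109452 in panel 2. Doublets were not called; removing the top 5% of cells by UMIs was an alternative. Others were the minimum per barcode, 2 UMIs for detection, the scaling of levels, the measure of correlation, and leaving out each replicate of panel 2. Genes are compared between libraries, not with each other, because primers differ. Thinned shares were computed exactly at 35 UMIs. The correlation is a mean of 20 seeded thinnings over genes in at least 10% of thinned cells. The clock genes were kept at any share, and Timeless was in 6.69% of thinned cells of the panel 1 library. The measure was run on simulated data with a planted pair of abundant genes. That run does not show whether a link between genes as sparse as Per2 and Timeless would be recovered. Shares of 0 are given a limit of 3 counts. Likeness used genes with at least 10 UMIs. The genes and lists were chosen with earlier results of these data known. Named are the analysed genes of the clock list, Klb and tdTomato, genes among the 3 highest and 3 lowest rho per clock gene and library, the 5 most alike across libraries, and up to 4 markers per list. Snx32 in 2 libraries, Cables1 over 2 libraries, and Timeless with Ermn and Ugt8a over cells were singled out after their values were seen. Results that rest on certain genes are not reported here. Python 3.11.15, numpy 2.4.6, pandas 2.3.3, scipy 1.17.1 and matplotlib 3.10.9 were used.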

Additional observations from a re-analysis of the deposited data

Results flagged for a closer look

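The clock genes also appear in barcodes that no comparison used. In the 605 barcodes of panel 1 of replicate 1 under the minimum, of median depth 11 UMIs, Bhlhe41 was in 7.77% (5.76 to 10.2), Per2 in 3.64% (2.29 to 5.45) and Timeless in 2.15% (1.15 to 3.65). Their levels there were 6.95 (5.10 to 9.24), 3.25 (2.04 to 4.92) and 2.81 (1.69 to 4.39) UMIs per 1000. The intervals of Per2 and Timeless hold the levels of the kept cells of that library, 4.04 and 2.43, and that of Bhlhe41 lies under 10.0. One barcode or more held several Timeless UMIs, since 13 barcodes held 19.

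The 21 barcodes found in tables of replicates 2 and 3 also held Bhlhe41, in 15 of 21 or 71.4% (47.8 to 88.7), at 4.34 UMIs per 1000 (3.55 to 5.26). Of its 104 UMIs, 84 were in 1 barcode. Per2 and Timeless had 0 UMIs among 23969. In these barcodes the values of 143 amplicons stand 1 column to the right of their names: correlation of the summed profile with that of 3 other libraries, over amplicons, was 0.04 to 0.07 as named and 0.39 to 0.53 after the move, so they were read after it.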

How the results depend on the processing

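No paired analysis was possible because no value comes from a test between the panels, and the larger set has 1 library of panel 1. There were 153 values under settings listed at the outset and 9 under settings added after seeing the data. Of these, 45 left the range around the value reported, which for rho was the interval by Fisher's transform. Such intervals were wide in panel 2 of replicate 2, as -0.57 to 0.081 for Bhlhe41 with Timeless, so staying inside shows little. Means over panel 2 carry an SD, not an interval. Leaving out a replicate cannot move such a mean by more than its SD. Those means were thus bound to count as unmoved, and the tally says nothing of their stability. Libraries are named here as panel 1, for its replicate 1, and as replicates 1, 2 and 3 of panel 2. Thinning to 35 UMIs gave the shares printed above: Per2 13.1%, 1.96% and 4.74% in panel 1 and replicates 2 and 3, Bhlhe41 30.0%, 65.9%, 54.7% and 52.6% in all 4 libraries, and Timeless 7.57%, 22.6% and 2.78% in panel 1 and replicates 2 and 3. Without the minimum on barcodes the shares in panel 1 were 18.1% (Per2), 32.0% (Bhlhe41) and 11.4% (Timeless), and with at least 50 UMIs and 10 genes 43.6%, 67.3% and 28.2%. Removing the 5% of cells with the most UMIs gave 24.4% (Per2) and 14.3% (Timeless) in panel 1. Asking for 2 UMIs gave Per2 6.74%, 18.6% and 46.0% in panel 1 and replicates 2 and 3, Bhlhe41 18.2% and 77.3% in panel 1 and replicate 1, and Timeless 3.58% and 25.3% in panel 1 and replicate 3. Keeping the 21 barcodes gave 90.6% (Bhlhe41) and 67.2% (Timeless) in replicate 2. Levels without the UMIs of the 10 leading genes of each library were 6.63, 0.974 and 3.08 per 1000 for Per2 in panel 1 and replicates 2 and 3, 16.4, 53.5, 54.1 and 49.4 for Bhlhe41 in all 4, and 3.99, 18.6 and 1.64 for Timeless in panel 1 and replicates 2 and 3. As a mean over cells Bhlhe41 was 9.24, 26.8 and 24.2 in panel 1 and replicates 1 and 3, which turns the order of replicates 1 and 3. Leaving Mbp, measured in replicate 3 alone, out of its total gave Bhlhe41 24.9 there, and leaving out the cell rich in Timeless gave 6.48 for Timeless in replicate 2. Dividing full counts by the cell's total gave rho 0.12, 0.082 and 0.12 in panel 1 for Per2 with Bhlhe41, Per2 with Timeless and Bhlhe41 with Timeless. The same measure put Per2 past 0.2 in size in replicate 2, at -0.21 with Bhlhe41 and 0.22 with Timeless. Bhlhe41 with Timeless in replicate 2 was -0.061 at 35 UMIs and -0.26 to -0.35 otherwise. Leaving out each replicate of panel 2 gave mean shares of 23.3% to 59.5% (Per2), 100% (Bhlhe41) and 30.5% to 80.5% (Timeless), and mean levels of 0.245 to 0.967, 21.1 to 25.2 and 0.384 to 5.05 per 1000. The lowest Per2 means came without replicate 3 and the lowest Timeless means without replicate 2, and the highest of both without replicate 1. Panel 2 of replicate 1, with 11423 UMIs, gives a limit of 0.263 per 1000 for a count of 0, and an exact upper bound of 0.323.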
